A study of Rattus norvegicus with 12 samples.

Results

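The genes described here encode the matrix metalloproteinases (MMPs), the ADAM and ADAMTS proteinases, the ADAMTS-like proteins and the tissue inhibitors of metalloproteinases (TIMPs). They were chosen by gene symbol alone, and 57 of the 17315 genes counted met the rule: 21 MMPs, 16 ADAMs, 13 ADAMTS genes, 3 ADAMTS-like genes and 4 TIMPs. RNA was sequenced from cultured cells of Sprague-Dawley rats in 3 groups, each said to hold Müller cells, the principal glia of the retina. Primary MC stands for 4 primary cultures from pups of postnatal day 2 to 4, replicates 1 and 2 at passage 4 and replicates 3 and 4 at passage 3. SIRMu-1 is a line that arose from pup cultures and became immortal with no gene added; its 5 libraries were at passages 6 to 20. For rMC-1, a line from adult animals carrying the SV40 large T antigen, there were 3 libraries at passages 23 to 26. Each line stands for itself, since its libraries are cultures of 1 line. All cultures had 25 mM glucose and 2 mM glutamine. The serum share was 20% in the primary and SIRMu-1 medium and 10% in that of rMC-1. Both gentamicin, at 87 mg/L, and amphotericin B, at 2.2 mg/L, were added to every primary culture and to SIRMu-1 replicates 3 and 5, and to no rMC-1 culture. In each comparison with rMC-1, the line, serum, donor age and passage cannot be told apart, and against primary cultures the drugs cannot either. Between SIRMu-1 and primary cultures, the line and the passage cannot be told apart.

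MMPs are secreted or membrane-bound zinc proteinases that cleave collagens, laminins, proteoglycans and each other's proforms. ADAMs are mostly membrane proteins, and several of them shed receptors and growth factors from the cell surface. ADAMTS proteinases are secreted, bind to the matrix and process procollagens or cleave proteoglycans, while ADAMTS-like proteins share their matrix-binding domains without the proteinase. TIMPs bind the active site of these enzymes and block it. In the retina, Müller cells span the whole tissue and meet the inner limiting membrane and the vessels, and matrix proteinases there are known from vascular leakage, scarring and wound repair.

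Library totals, counting reads in genes, were 22582345 to 29812705 in primary cultures, 26349346 to 36730443 in SIRMu-1 and 27351014 to 38125630 in rMC-1. Levels below are in CPM, the count of a gene relative to its library's total, on edgeR's TMM scale, which also corrects for composition. They compare a gene between libraries, not genes with each other, since gene length is not taken out. A gene was called at an edgeR adjusted p under 0.05, corrected over all 11321 genes tested. Of the 57 genes, 38 passed the filter on low counts and were tested. Of these, 5 (Adamts19, Mmp3, Mmp9, Mmp13 and Mmp17) reached the filter's minimum in no library of either line. They were tested because of the primary libraries and had to be lower in the lines, so their p-values are given as a description. The 19 genes not tested were 8 MMPs, 9 ADAMs, Adamts18 and Timp4, and 4 of these had no count in any library. File names carry a code of unknown meaning that some libraries of a group share. Those libraries were also summed into 7, and a call given below that then ended has the edgeR adjusted p of that fit beside it.

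Counts of the 57 genes together made up 0.575% to 0.975% of a primary library, 0.542% to 0.674% in SIRMu-1 and 0.144% to 0.175% in rMC-1. The lowest primary value, in replicate 4, lay within the SIRMu-1 range, and every rMC-1 library lay below all others. Against primary cultures, 19 of the 38 tested genes were lower and 4 higher in SIRMu-1 (23 called, 60.5%). Of all tested genes 46.1% were called, 24.4% lower and 21.7% higher. Their median log2 fold change was −0.70, also with genes at 0 in a line set to their bound, and that of all tested genes −0.02. In rMC-1, 31 were lower and 1 was higher than in primary cultures (84.2%), against 70.8% of all tested genes called, 38.9% lower and 31.9% higher. Here the median was −2.38 for the 38 genes, with or without such bounds, and −0.15 for all genes. The genes tested because of the primary libraries make up 5 of the 19 and 4 of the 31. The 31 also include Adam23, Adamts14, Adamts15 and Mmp23, which reached the filter's minimum in no rMC-1 library. They were tested through groups where they were higher, so these calls are given as a description. Adam4, the 1 gene higher in rMC-1 and among the 4 higher in SIRMu-1, reached that minimum in no primary library. With libraries of a code summed, 1 gene was higher in SIRMu-1 and 0 in rMC-1. Lower calls in SIRMu-1 then ended for Adam10, Adamts19, Adamtsl4, Mmp2, Mmp14, Mmp15, Mmp28 and Timp2. In rMC-1 they ended for Adam9 and Adamts19. SIRMu-1 exceeded rMC-1 in 20 of the 38 genes and was lower in 3 (60.5%), against 63.2% of all tested genes, 32.7% higher and 30.5% lower. Among the 20 are Adam23, Adamts14, Adamts15 and Mmp23, to which the same limit of the filter applies. The groups did not overlap for 16 of the 38 genes between SIRMu-1 and primary cultures (35.3% of all genes), 31 between rMC-1 and primary cultures (70.9%) and 25 between the lines (63.0%). Of the 19 genes lower in SIRMu-1 and the 31 lower in rMC-1, 17 were on both lists. Both lists use the same 4 primary libraries.

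**Figure D1:**
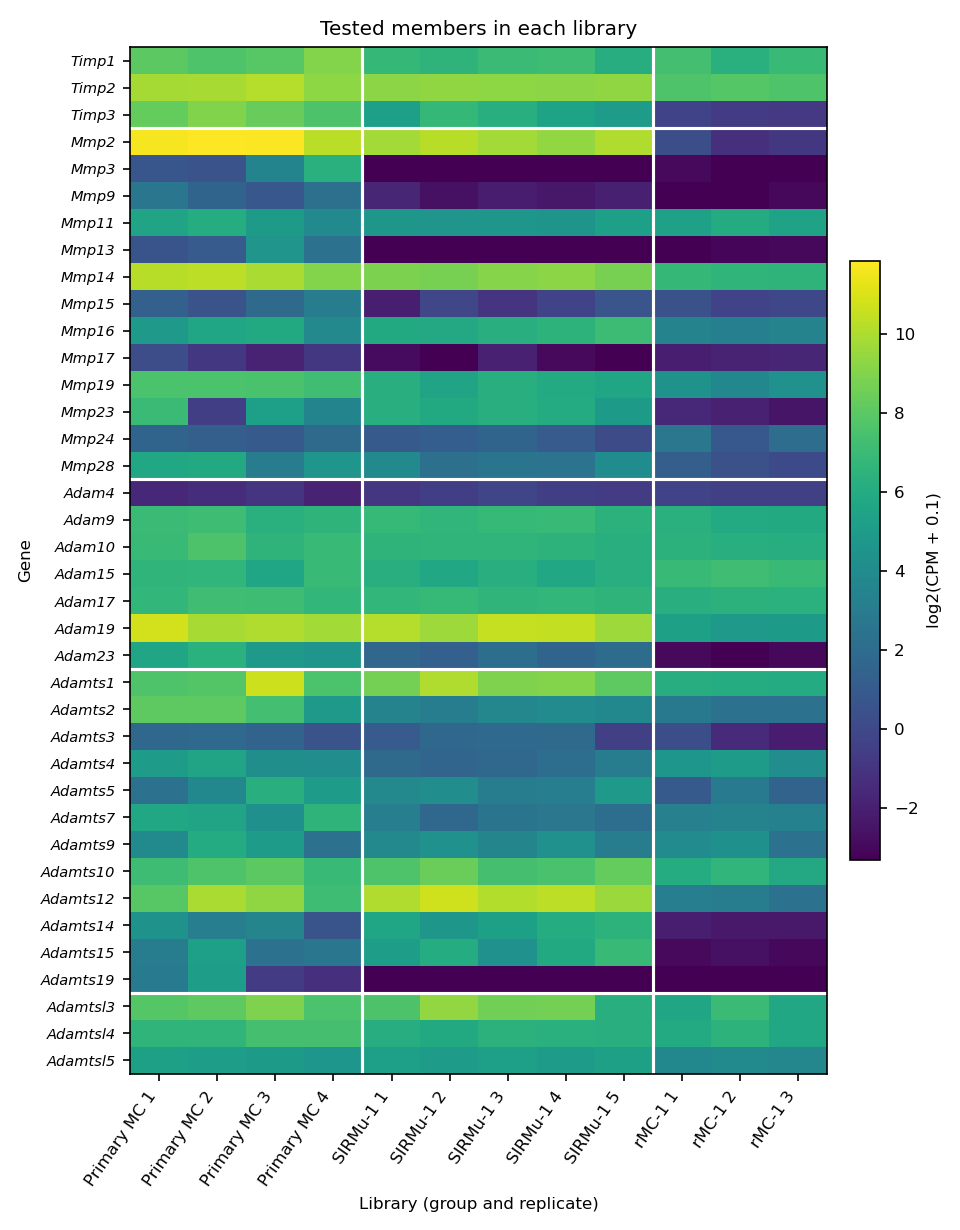
Level of the 38 tested genes in each of the 12 libraries, as log2(CPM + 0.1), with genes grouped by family (TIMP, MMP, ADAM, ADAMTS, ADAMTS-like) and libraries by group. Mmp2 and Timp3 are bright in the 4 primary libraries and dark in the 3 rMC-1 libraries, while Mmp3, Mmp13 and Adamts19 are near the floor in all libraries of both lines.

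Sums of cell type markers also differed between the groups, and several of them overlapped between primary cultures and SIRMu-1. A list of 10 fibroblast and mesenchymal markers, among them Col1a1, Col3a1 and Postn, summed to 72140 to 193000 CPM in primary cultures and 69050 to 93540 in SIRMu-1. In SIRMu-1 4 of the 10 markers were lower than in primary cultures, Thy1, Dcn, Lum and Col3a1, with log2 fold changes of −14.09, −7.23, −5.62 and −1.52 (edgeR adjusted p = 0.178 for Col3a1 with libraries of a code summed). In rMC-1 the list summed to 4711 to 6599 CPM, and all 10 markers were lower (Lum with 0.0522 when summed). Col1a1 and Fn1 carried most of these sums, 43.4% and 32.8% in primary cultures. A list of 15 Müller glia markers summed to 7971 to 8939 CPM in primary cultures, with none of them at 0. It summed to 3571 to 4696 CPM in SIRMu-1, where Sox2, Aqp4, Kcnj10 and Car2 had no count, and to 1711 to 1797 CPM in rMC-1, where Aqp4 and Car2 had none. Vim, which many cultured cells express, made up 73.4%, 83% and 77.9% of the sum in primary, SIRMu-1 and rMC-1 cultures. Some specific markers were low in primary cultures too, with 2 counts of Aqp4, 6 of Rlbp1 and 13 of Kcnj10 in all 4 libraries. Glul, Sox9 and Slc1a3 were higher there, with means of 143, 52.2 and 34.2 CPM. Against primary cultures, 10 of the 13 tested Müller glia markers were lower and 0 higher in SIRMu-1. In rMC-1, 9 were lower and 1 higher. These shares of 76.9% called in each line stand beside 46.1% and 70.8% of all tested genes. With libraries of a code summed, lower calls ended for Cd44 and Glul in both lines, and for Dkk3 and Gfap in SIRMu-1. Sox9, Dkk3 and Apoe had log2 fold changes of −10.45, −10.30 and −5.28 in rMC-1. Rlbp1 alone was called higher there (3.76, edgeR adjusted p = 0.000276), and Sox2 (2.58, 0.0596) and Slc1a3 (0.69, 0.0827) did not pass the test. The Müller cell label thus rests on part of that list in each of the 3 groups. Pericyte and smooth muscle markers (9 genes) summed to 10100 to 14930, 6984 to 16690 and 1440 to 3666 CPM in the same order, with Kcnj8 at 0 in both lines. The 10 microglia and macrophage markers summed to at most 15.8 CPM in any library, and 5 of them had no count in either line. Endothelium markers (8 genes) summed to 3.085 to 13.35 CPM in primary cultures, 26.21 to 46.31 in SIRMu-1 and 1.606 to 2.478 in rMC-1. Tek made up 93.1% of that sum in SIRMu-1. Astrocyte markers (8 genes) summed to 380.8 to 886, 425.6 to 737.1 and 196.1 to 236.7 CPM in primary, SIRMu-1 and rMC-1 cultures. Neuron and photoreceptor markers (11 genes) summed to 93.1 to 714.1, 71.03 to 328.5 and 69.8 to 125.2 CPM in that order. For retinal pigment epithelium (7 genes) the sums were 14.67 to 51.51, 3.061 to 10.13 and 14.17 to 16.26 CPM. The part of these cell types in the results below was not tested, and fewer cells of a type cannot be told apart from less RNA per cell.

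All 3 tested TIMPs were lower in both lines than in primary cultures, Timp3 by the widest margin. Timp3, the inhibitor that binds to the matrix, had 305, 502, 315 and 193 CPM in primary replicates 1 to 4. In SIRMu-1 replicates 1 to 5 it had 37.4, 111, 75.9, 43.6 and 32.5 CPM, and in rMC-1 replicates 1 to 3 it had 0.712, 0.515 and 0.474 CPM. The 3 groups did not overlap. Timp3 had a log2 fold change of −2.45 ± 0.38 (SE) in SIRMu-1 and −9.18 ± 0.65 in rMC-1 against primary cultures, with edgeR adjusted p of 0.00035 and 4.03e-07, and SIRMu-1 was above rMC-1 by 6.73 ± 0.59 (2.53e-06).

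Timp1, the soluble inhibitor known to be induced by serum and cytokines, had 260, 205, 239 and 522 CPM in primary replicates 1 to 4. It had 111, 92.1, 129, 140 and 71.0 CPM in SIRMu-1 and 157, 80.5 and 117 CPM in rMC-1. Primary replicate 4 was the highest library, and neither line overlapped with the primary cultures. Timp1 fell by 1.50 ± 0.30 on the log2 scale in SIRMu-1 (edgeR adjusted p = 0.00191) and by 1.38 ± 0.35 in rMC-1 (0.0043). The difference between the lines, −0.12 ± 0.33, did not pass the test (edgeR adjusted p = 0.764).

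Timp2, which inhibits Mmp2 and also takes part in its activation at the cell surface, had 893, 912, 1135 and 621 CPM in primary replicates 1 to 4. SIRMu-1 had 582, 634, 615, 583 and 651 CPM, and rMC-1 had 200, 227 and 205 CPM. Primary replicate 4 lay inside the SIRMu-1 range, and rMC-1 lay below every other library. Timp2 fell by 0.54 ± 0.15 on the log2 scale in SIRMu-1 (edgeR adjusted p = 0.0102; 0.176 with libraries of a code summed, 0.0811 against the 2 SIRMu-1 cultures with drugs only). In rMC-1 it fell by 2.08 ± 0.18 (edgeR adjusted p = 1.41e-06). Timp4 was not tested: it had 54 counts in all primary libraries together, 2 in SIRMu-1 and 1 in rMC-1.

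**Figure D2:**
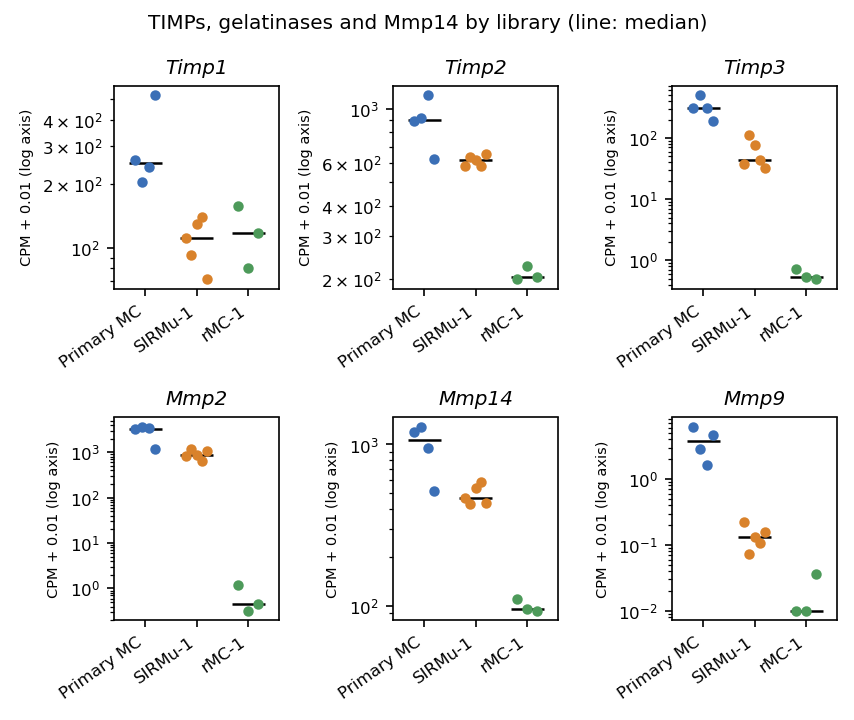
CPM + 0.01 on log axes for Timp1, Timp2, Timp3, Mmp2, Mmp14 and Mmp9; each dot is a library and the line marks the group's median. In Timp3 and Mmp2 the 3 groups occupy separate ranges, and in Timp1 the lines overlap with each other but not with the primary cultures.

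Both gelatinases, which cleave denatured collagen and basement membrane collagen IV, were lower in each line than in primary cultures. Mmp2 (gelatinase A) had 3226, 3668, 3437 and 1211 CPM in primary replicates 1 to 4. It had 837, 1194, 870, 656 and 1056 CPM in SIRMu-1 and 1.17, 0.309 and 0.448 CPM in rMC-1. The lowest primary library and the highest SIRMu-1 library lay close together, and rMC-1 held a trace of the RNA. Mmp2 had log2 fold changes of −1.64 ± 0.36 in SIRMu-1 and −12.16 ± 0.70 in rMC-1, with edgeR adjusted p of 0.00319 and 1.03e-07. With libraries of a code summed, the log2 fold change in SIRMu-1 was −1.56 and missed the threshold (edgeR adjusted p = 0.0589). Without rMC-1 replicate 1 the log2 fold change in rMC-1 was −12.83.

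Mmp9 (gelatinase B), at low levels throughout, had 6.19, 2.88, 1.61 and 4.72 CPM in primary replicates 1 to 4. SIRMu-1 had 0.213, 0.0629, 0.124, 0.0987 and 0.150 CPM. In rMC-1 there was 1 count in all, in replicate 3, against 377 in the primary libraries. The groups did not overlap between primary cultures and either line. The log2 fold change in SIRMu-1 was −4.86 ± 0.54 (edgeR adjusted p = 5.05e-05). For rMC-1 the ratio of primary to rMC-1 counts per library size was 472, with a 95% counting interval of 84.2 to 18700 that covers counting error only, and the call had an edgeR adjusted p of 5.91e-06. Microglia and macrophages are known sources of Mmp9. Their 10 markers summed to 3.71 to 15.8 CPM in primary cultures, 0.824 to 4.34 CPM in SIRMu-1 and 2.21 to 3.53 CPM in rMC-1, and primary replicate 1 was the highest library for both that sum and Mmp9. Their part in the difference was not tested.

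Mmp14 (MT1-MMP), the membrane-bound enzyme that activates pro-Mmp2 together with Timp2, had 1187, 1289, 948 and 515 CPM in primary replicates 1 to 4. It had 463, 428, 535, 581 and 432 CPM in SIRMu-1 and 109, 95.1 and 92.5 CPM in rMC-1. Primary replicate 4 lay within the SIRMu-1 range, and all rMC-1 libraries lay below both. Mmp14 fell by 1.01 ± 0.22 on the log2 scale in SIRMu-1 (edgeR adjusted p = 0.00321; 0.118 with libraries of a code summed) and by 3.31 ± 0.29 in rMC-1 (1.6e-06). The 3 RNAs of this activation step did not keep 1 proportion. Mmp2 counts per Timp2 count were 3.61, 4.02, 3.03 and 1.95 in primary replicates 1 to 4, 1.13 to 1.88 in SIRMu-1 and 0.00136 to 0.00584 in rMC-1. Mmp14 counts per Timp2 count were 1.33, 1.41 and 0.835 in primary replicates 1 to 3, with replicate 4 close to the third, 0.663 to 0.997 in SIRMu-1 and 0.420 to 0.547 in rMC-1. Within a library these ratios do not depend on scaling, and they are not molar, since gene length is not taken out.

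The collagenases, stromelysins and matrilysins that lie side by side in the genome carried counts almost only in primary cultures. In the RefSeq annotation (assembly GRCr8, another build than the rn6 of the files), 9 of the 57 genes follow each other on chromosome 8 in the order Mmp13, Mmp12, Mmp3, Mmp1, Mmp10, Mmp8, Mmp27, Mmp20 and Mmp7. Between the first and the last lie 10 protein-coding genes, the other being Mmp1b. These enzymes are known as targets of AP-1, the factor formed by Fos and Jun proteins, so the bases just before their start sites are shown for the 4 with the most counts. Each is the 90 bases that end at the base before the start used in the RefSeq promoter table, on the plus strand. For Mmp3 that start lies 14 bases inside the annotated gene, and for the other 3 it is the gene's first base. Capitals mark the AP-1 motif, searched as TGAGTCA on both strands, and the letters TATAAA of the TATA motif:
Mmp3, chr8:12925191-12925280: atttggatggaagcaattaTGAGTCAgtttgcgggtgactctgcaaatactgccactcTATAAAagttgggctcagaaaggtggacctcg
Mmp10, chr8:12974617-12974706: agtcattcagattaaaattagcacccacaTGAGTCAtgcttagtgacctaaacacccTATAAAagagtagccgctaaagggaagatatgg
Mmp13, chr8:12782739-12782828: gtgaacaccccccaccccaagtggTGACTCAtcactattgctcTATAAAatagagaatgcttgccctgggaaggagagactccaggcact
Mmp12, chr8:12866562-12866651: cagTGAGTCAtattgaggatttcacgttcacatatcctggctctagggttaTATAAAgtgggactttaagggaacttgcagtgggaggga

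The AP-1 motif begins 71 bases before that start in Mmp3, 61 in Mmp10, 66 in Mmp13 and 87 in Mmp12. Both strands of the 250 bases before each start were searched. Of the 39 genes described here that have a promoter in that table, 7 held the motif (17.9%), against 1354 of all 33469 promoters (4.05%). The 7 were Adam19 and 6 of the 9 neighbours: Mmp1, Mmp3, Mmp7, Mmp10, Mmp12 and Mmp13. TATAAA or its reverse complement TTTATA was in 12.9% of all promoters. A match says only that the letters are there.

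Mmp3 (stromelysin-1), which cleaves proteoglycans and activates other proforms, had 1.54, 1.38, 11.6 and 79.1 CPM in primary replicates 1 to 4, or 2129 counts in all. It had no count in any SIRMu-1 library and 1 count in rMC-1. Set against 3 counts over all SIRMu-1 libraries, the upper limit for a count of 0, Mmp3 was at least 1030-fold lower in SIRMu-1. For rMC-1 the ratio was 2670, with a 95% counting interval of 478 to 105000. Both were called, with edgeR adjusted p of 0.00295 (SIRMu-1) and 0.00437 (rMC-1). Primary replicate 4 gave most of the counts, and the fitted log2 fold change was −10.21 instead of −12.45 in SIRMu-1 without it, and −8.60 instead of −10.87 in rMC-1 (−12.40 without rMC-1 replicate 1, which held the single count). Each of these was called.

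Mmp13 (collagenase-3), which cleaves fibrillar collagens, had 1.42, 1.95, 24.2 and 5.07 CPM in primary replicates 1 to 4. Replicate 3 was the highest here, not replicate 4 as for Mmp3. For both genes, and for Mmp10 below, replicates 3 and 4, at passage 3, lay above replicates 1 and 2, at passage 4. The part of passage was not tested. SIRMu-1 had no count and rMC-1 had 2, against 745 in primary cultures. Mmp13 was at least 361-fold lower in SIRMu-1 (edgeR adjusted p = 0.000947). In rMC-1 the ratio was 466, with a counting interval of 129 to 3860 (edgeR adjusted p = 0.00152). Without primary replicate 3 both calls held, with fitted log2 fold changes of −9.43 and −7.11.

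Mmp10 (stromelysin-2) did not pass the filter and was not tested, since 325 of its 393 primary counts came from replicate 4. Its levels in primary replicates 1 to 4 were 0.276, 0.374, 2.28 and 14.3 CPM, the same order of replicates 3 and 4 as for Mmp3. There was 1 count in SIRMu-1 and none in rMC-1, where Mmp10 was at least 164-fold lower. Mmp12, the macrophage elastase, had 13 counts in primary cultures, 1 in SIRMu-1 and none in rMC-1. Mmp7 (matrilysin) had 8 counts, all of them in primary replicate 4. Mmp1 and Mmp20 had 2 and 3 counts in all 12 libraries together, and Mmp8 and Mmp27 had none.

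**Figure D3:**
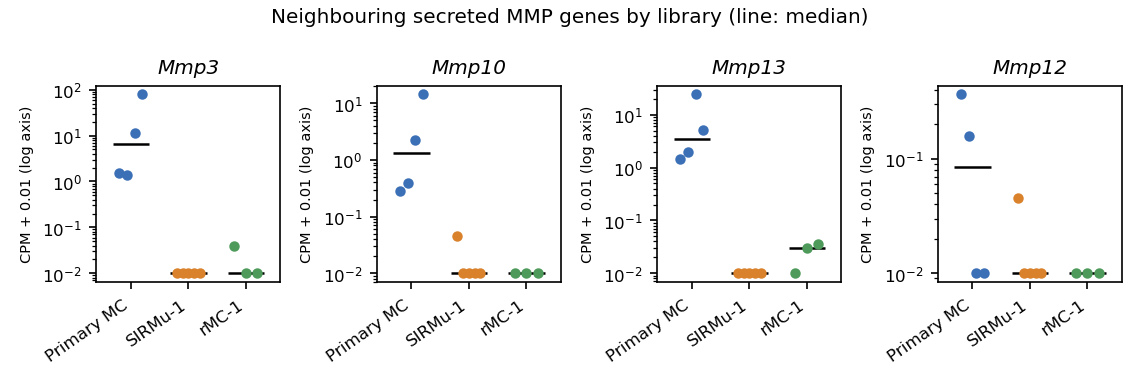
CPM + 0.01 on log axes for Mmp3, Mmp10, Mmp13 and Mmp12, neighbours on chromosome 8; each dot is a library, the line marks the group's median, and dots at 0.01 had no count. Primary replicates spread over more than a decade for Mmp3 (1.38 to 79.1 CPM), while the libraries of both lines sit at or next to the floor.

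Mmp19, Mmp28 and Mmp23 also fell in rMC-1, and Mmp19 and Mmp28 in SIRMu-1. Mmp19, which cleaves basement membrane proteins, had 186, 186, 179 and 143 CPM in primary replicates 1 to 4. It had 71.7, 46.6, 72.2, 60.9 and 48.4 CPM in SIRMu-1 and 20.7, 13.3 and 20.1 CPM in rMC-1. The 3 groups occupied separate ranges with little spread inside each. Mmp19 fell by 1.53 ± 0.18 on the log2 scale in SIRMu-1 (edgeR adjusted p = 6.02e-05) and by 3.26 ± 0.23 in rMC-1 (3.6e-07), and SIRMu-1 was above rMC-1 by 1.73 ± 0.21 (2.26e-05).

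Mmp28 (epilysin) had 53.4, 60.3, 8.0 and 23.7 CPM in primary replicates 1 to 4, and 15.5, 4.69, 5.53, 5.46 and 16.4 CPM in SIRMu-1. The rMC-1 libraries had 2.28, 1.24 and 0.974 CPM, below all others, while primary replicate 3 lay within the SIRMu-1 range. Mmp28 fell by 4.61 ± 0.80 on the log2 scale in rMC-1 (edgeR adjusted p = 0.000291). The log2 fold change of −1.94 ± 0.58 in SIRMu-1 (edgeR adjusted p = 0.0166) was no longer called without primary replicate 2 (0.0558), with libraries of a code summed (0.161) or against the SIRMu-1 cultures with drugs only (0.13).

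Mmp23 was uneven among the primary cultures, at 129, 0.599, 38.4 and 11.5 CPM in replicates 1 to 4. SIRMu-1 had 74.5, 59.9, 71.9, 63.3 and 30.7 CPM, inside the primary range. The rMC-1 libraries had 0.228, 0.165 and 0.0790 CPM, below the lowest primary library. Its log2 fold change in rMC-1 was −8.13 ± 1.57 (edgeR adjusted p = 0.000642), and −6.71 without primary replicate 1. That in SIRMu-1, 0.42 ± 0.88, did not pass the test (edgeR adjusted p = 0.723). Mmp11 (stromelysin-3) ranged from 15.1 to 66.1 CPM over all 12 libraries and was not called in any comparison of groups.

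Of the 5 membrane-type MMPs, Mmp16 was the one that rose in SIRMu-1. Mmp16 (MT3-MMP) had 28.4, 48.1, 60.0 and 14.1 CPM in primary replicates 1 to 4. It had 59.4, 56.1, 75.5, 89.6 and 136 CPM in SIRMu-1 and 10.9, 9.15 and 11.0 CPM in rMC-1. Primary replicate 3 lay within the SIRMu-1 range, and rMC-1 lay below all other libraries. Mmp16 was higher in SIRMu-1 by 1.15 ± 0.38 on the log2 scale (edgeR adjusted p = 0.0274) and fell by 1.86 ± 0.45 in rMC-1 (0.00286). The rise was no longer called without primary replicate 1 (0.0757), SIRMu-1 replicate 4 (0.0507) or 5 (0.072), with libraries of a code summed (0.146), or in a fit of the 2 groups alone (0.0554). Mmp15 (MT2-MMP), at a mean of 3.89 CPM in primary cultures, had log2 fold changes of −2.43 in SIRMu-1 and −2.02 in rMC-1 that passed the test (0.0524 in SIRMu-1 with libraries of a code summed). Mmp17, at most 1.10 CPM in any library, had 28, 12, 4 and 10 counts in primary replicates 1 to 4, 0 to 4 in SIRMu-1 libraries and 5 to 9 in those of rMC-1. Mmp24 was not called in either line against primary cultures, and its log2 difference of SIRMu-1 from rMC-1 was −1.04 ± 0.42 (edgeR adjusted p = 0.0454; 0.0703 with libraries of a code summed).

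**Figure D4:**
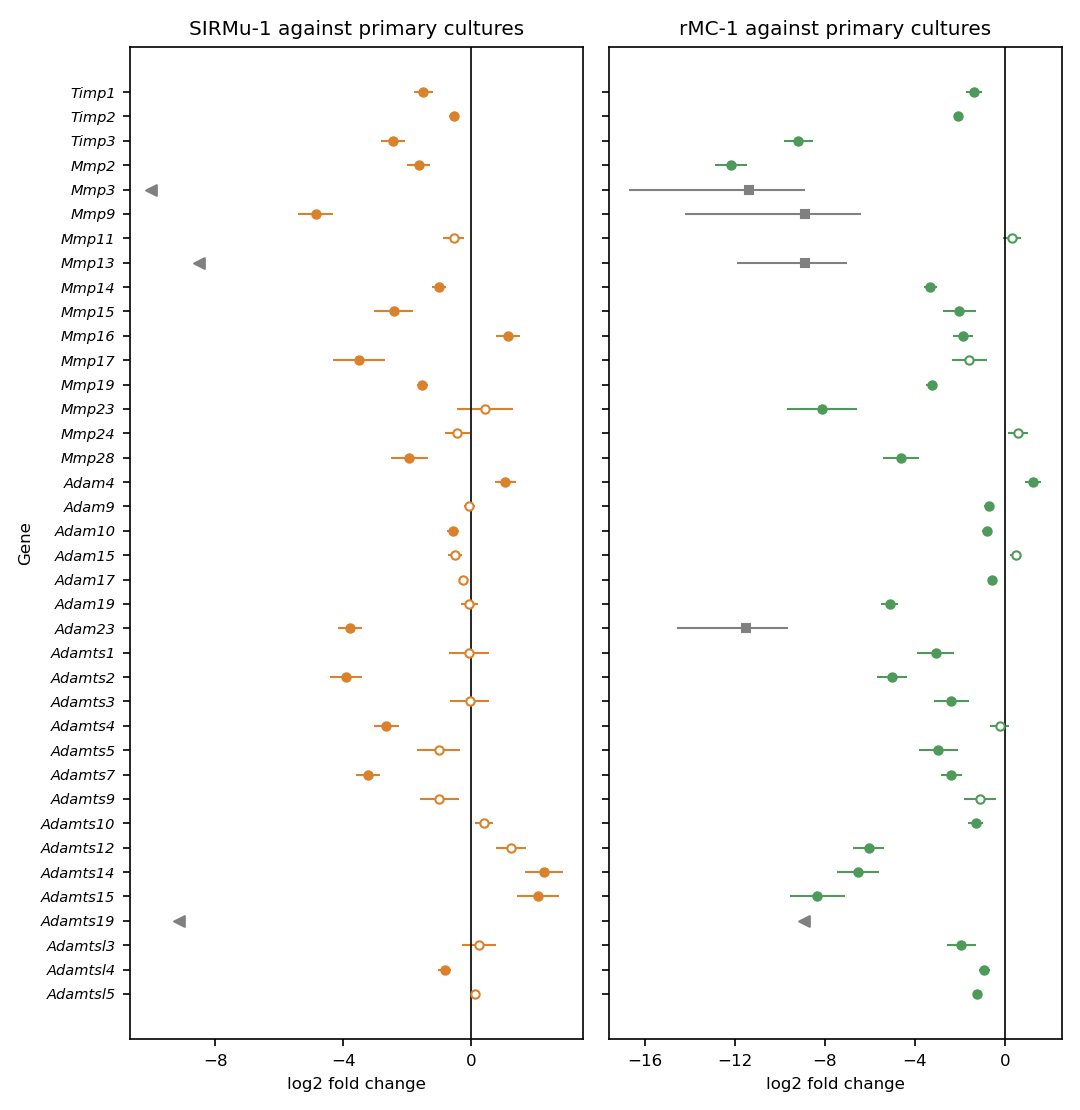
Log2 fold change of the 38 tested genes in SIRMu-1 (left, orange) and rMC-1 (right, green) against primary cultures; dots are edgeR estimates with SE bars, filled where the adjusted p is under 0.05. Grey marks stand for genes with at most 3 counts in all libraries of the line: a triangle is the bound that a count of 0 allows, a square is the count ratio with its 95% counting interval. Most dots lie left of 0, with 4 filled dots to its right in SIRMu-1 and 1 in rMC-1.

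Among the ADAMTS proteinases, the group that removes the N-propeptide of fibrillar procollagens split in SIRMu-1. Adamts2, the main enzyme of that step, had 274, 275, 159 and 29.7 CPM in primary replicates 1 to 4. It had 10.7, 8.5, 13.0, 15.8 and 13.6 CPM in SIRMu-1 and 6.81, 5.23 and 5.16 CPM in rMC-1. No group overlapped with another, and primary replicate 4 was nearest to SIRMu-1. Adamts2 had log2 fold changes of −3.90 ± 0.50 in SIRMu-1 and −5.01 ± 0.66 in rMC-1, with edgeR adjusted p of 0.000117 and 3.64e-05, while the lines differed by 1.10 ± 0.54 (0.0919).

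Adamts14, a close relative of Adamts2, went the other way in SIRMu-1. Its levels were 22, 8.76, 12 and 1.45 CPM in primary replicates 1 to 4 and 47.5, 26.1, 39.9, 66.2 and 88.3 CPM in SIRMu-1. In rMC-1 it had 0.142, 0.103 and 0.105 CPM. The ranges did not overlap, with SIRMu-1 highest and rMC-1 lowest. Adamts14 rose by 2.27 ± 0.58 on the log2 scale in SIRMu-1 (edgeR adjusted p = 0.00779; 0.0638 with libraries of a code summed) and fell by 6.53 ± 0.95 in rMC-1 (7.72e-05). The lines differed by 8.81 ± 0.99 (edgeR adjusted p = 1.62e-05). Adamts3, the third member, had means of 2.71, 2.63 and 0.522 CPM in primary, SIRMu-1 and rMC-1 cultures. It was called lower in rMC-1 (−2.38 ± 0.76, edgeR adjusted p = 0.0148). Their fibrillar substrates, the fibroblast markers Col1a1, Col1a2 and Col3a1, had log2 fold changes of −3.96 to −4.56 in rMC-1, and of these 3 Col3a1 alone was called in SIRMu-1. Col1a2 had a mean of 1.67 CPM in primary cultures.

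The proteinases that cleave hyaluronan-binding proteoglycans such as versican and aggrecan differed gene by gene. Adamts1 had 206, 225, 1658 and 185 CPM in primary replicates 1 to 4, so 1 library stood far above the others. It had 402, 1035, 477, 519 and 267 CPM in SIRMu-1 and 70.0, 67.7 and 65.2 CPM in rMC-1. SIRMu-1 lay within the primary range, and rMC-1 lay below all other libraries. The log2 fold change in rMC-1 was −3.07 ± 0.82 (edgeR adjusted p = 0.00528), and −1.60 without primary replicate 3 (0.00344). In SIRMu-1 it was −0.07 ± 0.64 (edgeR adjusted p = 0.935).

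Adamts4 (aggrecanase-1) showed the reverse order of the lines. It had 33.7, 45.5, 18.4 and 17.3 CPM in primary replicates 1 to 4, 3.63, 2.96, 3.26, 4.41 and 8.54 CPM in SIRMu-1, and 25.0, 31.4 and 17.0 CPM in rMC-1. All SIRMu-1 libraries lay below the others, and rMC-1 lay almost wholly within the primary range. Adamts4 fell by 2.66 ± 0.38 on the log2 scale in SIRMu-1 (edgeR adjusted p = 0.000236). The log2 difference of rMC-1 from primary cultures was −0.23 ± 0.42 (edgeR adjusted p = 0.63), and that of SIRMu-1 from rMC-1 was −2.42 ± 0.40 (0.000255).

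Adamts5 (aggrecanase-2) had 5.09, 13.2, 74.9 and 32.5 CPM in primary replicates 1 to 4, 8.46 to 28.9 CPM in SIRMu-1 and 1.82, 7.46 and 2.69 CPM in rMC-1. Both lines overlapped with the primary cultures, and all SIRMu-1 libraries lay above those of rMC-1. The log2 fold change in rMC-1, −2.97 ± 0.87 (edgeR adjusted p = 0.00904), ran from −2.08 without primary replicate 3 to −3.71 without rMC-1 replicate 2. Adamts15 had 8.68, 38.0, 5.19 and 6.13 CPM in primary replicates 1 to 4 and 33.9, 68.0, 20.5, 59.2 and 123 CPM in SIRMu-1. In rMC-1 it had at most 0.0618 CPM. Primary replicate 2 lay inside the SIRMu-1 range. The rise in SIRMu-1, 2.07 ± 0.65 (edgeR adjusted p = 0.0222), was 3.19 without that library (0.0011), and was no longer called without primary replicate 1, 3 or 4 or SIRMu-1 replicate 5 (0.0509 to 0.0623). In rMC-1 the log2 fold change was −8.34 ± 1.23 (edgeR adjusted p = 8.9e-05), and −7.22 without primary replicate 2. Adamts9 ranged from 4.92 to 64.9 CPM over all libraries and was not called in any comparison of groups.

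Other ADAMTS proteinases included genes with large changes in both lines. Adamts7, which cleaves the cartilage protein COMP, had 55.2, 46.4, 19.8 and 91.5 CPM in primary replicates 1 to 4. It had 8.79, 3.37, 5.66, 6.29 and 4.31 CPM in SIRMu-1 and 9.80, 10.8 and 10.0 CPM in rMC-1. Both lines lay below every primary library. Adamts7 fell by 3.23 ± 0.39 on the log2 scale in SIRMu-1 (edgeR adjusted p = 8.21e-05) and by 2.38 ± 0.45 in rMC-1 (0.000573).

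Adamts12, which also cleaves COMP, had 238, 966, 654 and 142 CPM in primary replicates 1 to 4. It had 1066, 1700, 1081, 1292 and 764 CPM in SIRMu-1 and 8.80, 8.55 and 5.14 CPM in rMC-1. Primary replicate 2 lay in the SIRMu-1 range, and rMC-1 was far below both groups. The log2 difference of SIRMu-1 from primary cultures, 1.24 ± 0.48, did not pass the test (edgeR adjusted p = 0.0529). In rMC-1 it was −6.06 ± 0.70 (edgeR adjusted p = 1.36e-05).

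Adamts19 was counted in primary cultures alone. Its levels in primary replicates 1 to 4 were 7.10, 35.7, 0.537 and 0.308 CPM, 1152 counts in all, and neither line had a count. Replicates 1 and 2, which share a file-name code and were both at passage 4, were the high ones. Replicate 2 alone gave 953 of the counts. The part of the code or of passage was not tested. Set against 3 counts over the group, Adamts19 was at least 558-fold lower in SIRMu-1 and at least 481-fold lower in rMC-1. Its calls (edgeR adjusted p = 0.0151 and 0.019) ended with libraries of a code summed (0.0956 and 0.0615), that in SIRMu-1 also against the 2 cultures with drugs (0.0791), and it passed the filter in 9 of the 12 fits without 1 library. Adamts10, which binds to fibrillin microfibrils, had means of 182, 238 and 74.1 CPM in primary, SIRMu-1 and rMC-1 cultures and fell by 1.30 ± 0.33 on the log2 scale in rMC-1 (edgeR adjusted p = 0.00424).

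**Figure D5:**
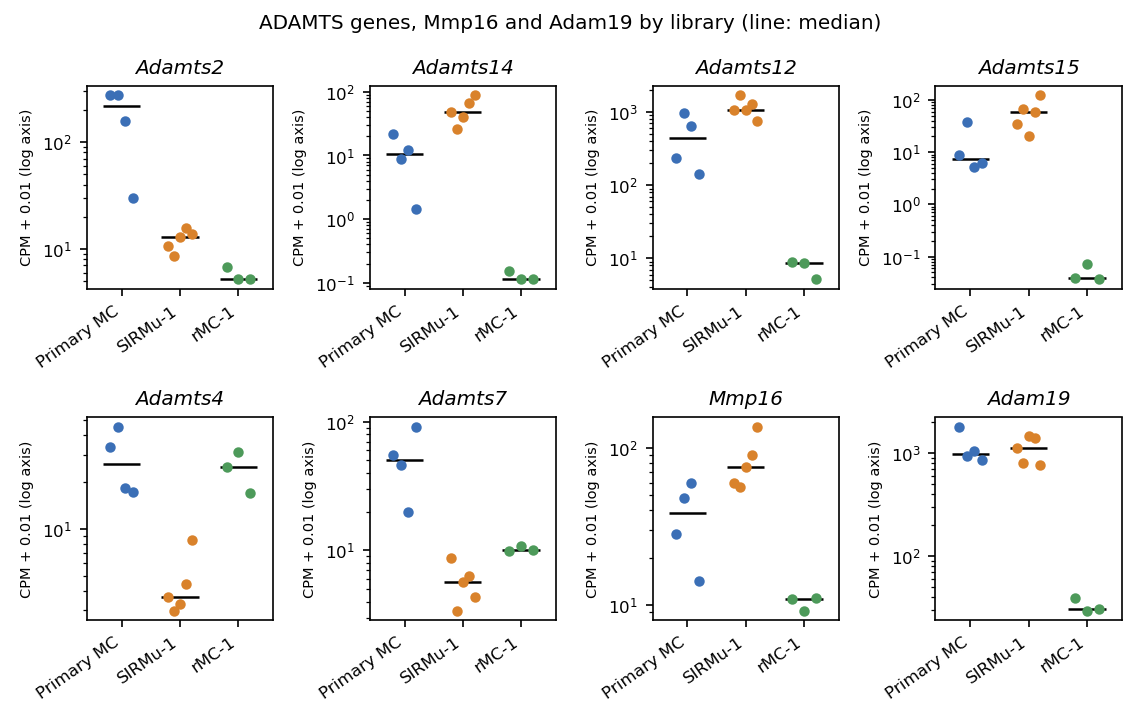
CPM + 0.01 on log axes for 6 ADAMTS genes, Mmp16 and Adam19; each dot is a library and the line marks the group's median. Adamts14 is highest in SIRMu-1 (26.1 to 88.3 CPM) and Adamts4 lowest there (2.96 to 8.54 CPM), while Adam19 overlaps between primary cultures and SIRMu-1 and is lower in rMC-1 (29.6 to 39.9 CPM).

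The 3 ADAMTS-like genes were all lower in rMC-1. Adamtsl5 had 39.6, 36.5, 31.1 and 24.6 CPM in primary replicates 1 to 4, 32.5 to 38.4 CPM in SIRMu-1 and 13.2, 15.1 and 12.8 CPM in rMC-1. In rMC-1 it fell by 1.26 ± 0.16 on the log2 scale (edgeR adjusted p = 2.37e-05). Adamtsl3 (230, 272, 481 and 191 CPM in primary replicates 1 to 4; 48.7, 128 and 51.7 CPM in rMC-1) had a log2 fold change of −1.95 ± 0.65 in rMC-1 (edgeR adjusted p = 0.0184). That call ended without rMC-1 replicate 1 (0.0776) or 3 (0.0777). Adamtsl4, a fibrillin-binding protein of the lens zonule and the only one of these 3 called in SIRMu-1, fell by 0.83 ± 0.21 there (edgeR adjusted p = 0.00714; 0.0551 with libraries of a code summed) and by 0.93 ± 0.25 in rMC-1 (0.00514).

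Among the ADAMs, the widest differences were in Adam19 and Adam23, while the shedding enzymes Adam10 and Adam17 moved by less than 1 on the log2 scale. Adam19, which is known to shed neuregulin, had 1797, 940, 1035 and 855 CPM in primary replicates 1 to 4. It had 1118, 794, 1446, 1400 and 774 CPM in SIRMu-1 and 39.9, 29.6 and 30.6 CPM in rMC-1. Primary and SIRMu-1 libraries overlapped, and rMC-1 lay below both. In rMC-1 the log2 fold change was −5.12 ± 0.37 (edgeR adjusted p = 4.51e-07), and that in SIRMu-1 was −0.06 ± 0.26 (0.858).

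Adam23, which lacks a working proteinase site and binds integrins, had 50.8, 81.7, 28.6 and 23.8 CPM in primary replicates 1 to 4. SIRMu-1 had 3.17, 2.45, 4.38, 2.83 and 3.93 CPM, and rMC-1 had 2 counts in all against 4652 in primary cultures. The groups did not overlap. Adam23 fell by 3.79 ± 0.37 on the log2 scale in SIRMu-1 (edgeR adjusted p = 2.09e-05). For rMC-1 the count ratio was 2910, with a counting interval of 806 to 24100 (edgeR adjusted p = 2.62e-07).

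Adam10, the main sheddase of Notch and cadherins, had 123, 195, 94.7 and 121 CPM in primary replicates 1 to 4. It had 93.9, 97.5, 98.7, 89.1 and 72.0 CPM in SIRMu-1 and 84.9, 76.7 and 68.6 CPM in rMC-1. All rMC-1 libraries lay below the primary range, while SIRMu-1 reached into it. The log2 fold change was −0.80 ± 0.21 in rMC-1 (edgeR adjusted p = 0.00518) and −0.57 ± 0.18 in SIRMu-1 (0.0243). The call in SIRMu-1 ended without primary replicate 2 (0.069), with libraries of a code summed (0.166) or against the SIRMu-1 cultures with drugs only (0.0695).

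Adam17 (TACE), which sheds TNF and ligands of the EGF receptor, had 104, 144, 141 and 103 CPM in primary replicates 1 to 4. It had 104, 116, 97.3, 103 and 92.4 CPM in SIRMu-1 and 77.2, 86.0 and 83.1 CPM in rMC-1. The rMC-1 libraries lay below all others. The log2 fold change was −0.59 ± 0.14 in rMC-1 (edgeR adjusted p = 0.00268) and −0.26 ± 0.12 in SIRMu-1 (0.0944; called without primary replicate 1, 0.046, or 4, 0.0424). Both Adam10 and Adam17 lost their call in rMC-1 when libraries were scaled by their totals, with log2 fold changes of −0.33 (edgeR adjusted p = 0.18) and −0.10 (0.434). That scaling moved the median of all genes from −0.15 to 0.32, and both genes lay below that median.

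Adam9 had means of 110, 106 and 66.7 CPM in primary, SIRMu-1 and rMC-1 cultures and fell by 0.73 ± 0.20 on the log2 scale in rMC-1 (edgeR adjusted p = 0.00663; 0.0781 with libraries of a code summed). Adam15, with means of 92.5, 65.1 and 129 CPM, was not called in either line against primary cultures, and its log2 difference of SIRMu-1 from rMC-1 was −0.98 ± 0.23 (edgeR adjusted p = 0.00295; 0.0508 summed). Adam4 was the 1 tested gene called higher in both lines, at 0.176 to 0.402 CPM in primary cultures, 0.427 to 0.784 CPM in SIRMu-1 and 0.632 to 0.741 CPM in rMC-1. The groups did not overlap with the primary cultures, but these levels are low. Adam4 reached the filter's minimum in no primary library and was tested only because of the lines, where it was higher. Its p-values are given as a description. The log2 rise was 1.06 ± 0.33 in SIRMu-1 (edgeR adjusted p = 0.0214) and 1.25 ± 0.36 in rMC-1 (0.00827). Neither call held with libraries of a code summed (0.16 and 0.0553), and a filter at 1 CPM in 3 libraries left Adam4 untested. Of the 9 ADAMs not tested, Adam30 had the most counts, 65 in all 12 libraries.

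Of 20 tested regulators of these enzymes (inhibitors, activators and partners), 10 were lower and 3 higher in SIRMu-1, and 9 lower and 7 higher in rMC-1, against primary cultures. These shares of 65% and 80% called stand beside 46.1% and 70.8% of all tested genes. Their median log2 fold changes were −0.51 and −0.27. Reck, a membrane-anchored MMP inhibitor, had 114, 148, 141 and 113 CPM in primary replicates 1 to 4, 77.1 to 91.0 CPM in SIRMu-1 and 20.1, 37.0 and 20.5 CPM in rMC-1. The 3 groups did not overlap, and Reck fell by 0.63 ± 0.17 on the log2 scale in SIRMu-1 (edgeR adjusted p = 0.0113; 0.0659 with libraries of a code summed) and by 2.31 ± 0.21 in rMC-1 (2.5e-06). Tfpi2, a secreted proteinase inhibitor, had 7.93, 12.6, 13.8 and 22.3 CPM in primary replicates 1 to 4 and no count in either line. It was at least 656-fold lower in SIRMu-1 and at least 565-fold lower in rMC-1. The convertases Pcsk5 and Pcsk6, which activate proproteins, had log2 fold changes of −10.34 and −9.34 in rMC-1 and were not called in SIRMu-1. Leaving out 1 library moved Pcsk5 to −8.78 (without primary replicate 3) or −11.30 (without rMC-1 replicate 2), and Pcsk6 to −10.07 (without rMC-1 replicate 1). Tspan5 and Tspan15, tetraspanins that escort Adam10 to the surface, were higher in both lines. Their log2 rises were 1.12 (edgeR adjusted p = 0.00415; 0.0766 with libraries of a code summed) and 0.82 (0.0202; 0.0742 summed) in SIRMu-1, and 1.60 and 1.2 in rMC-1. The 3 other tested tetraspanins of the list differed from these. Tspan17 fell by 1.31 ± 0.32 in SIRMu-1 (edgeR adjusted p = 0.00618; 0.0756 summed, 0.0957 against the cultures with drugs) and was not called in rMC-1 (−0.43, 0.316). Tspan33 had a log2 fold change of −5.13 ± 0.95 in SIRMu-1 (edgeR adjusted p = 0.00112) and 1.36 in rMC-1 (0.155). That of Tspan14 was 0.03 in SIRMu-1 (edgeR adjusted p = 0.897) and 0.46 in rMC-1 (0.0233).

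In the plasminogen activator system, whose product plasmin activates several proMMPs, 4 of 9 tested genes were lower in SIRMu-1 (44.4%) and 6 in rMC-1 (66.7%), and none was higher. Of all tested genes 46.1% and 70.8% were called, with 24.4% and 38.9% called lower. Serpine2 (protease nexin-1) had 1073, 302, 936 and 536 CPM in primary replicates 1 to 4, 33.1 to 54.8 CPM in SIRMu-1 and 0.132 to 0.227 CPM in rMC-1, with no overlap. Serpine2 fell by 4.08 ± 0.34 in SIRMu-1 and by 11.9 ± 0.62 in rMC-1 on the log2 scale (edgeR adjusted p = 7.67e-06 and 5.35e-08). Plau (urokinase) had 51.0, 115, 80.8 and 51.3 CPM in primary replicates 1 to 4, 0.850 to 25.5 CPM in SIRMu-1 and 0.0527 to 1.60 CPM in rMC-1. Its log2 fold changes were −2.50 ± 0.77 (edgeR adjusted p = 0.0194; 0.053 without primary replicate 2 and 0.11 against the SIRMu-1 cultures with drugs only) and −6.98 ± 1.21 (0.000286; −9.11 without rMC-1 replicate 1). The astacin Tll1, a relative of the procollagen C-proteinase Bmp1, fell by 5.72 ± 0.77 in rMC-1 (edgeR adjusted p = 4.52e-05) and Bmp1 by 1.56 ± 0.25 (0.000157).

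Of 7 tested EGF-family ligands that ADAMs shed, 1 was called in SIRMu-1 (14.3%, against 46.1% of all genes) and 5 in rMC-1 (71.4%, against 70.8%). Betacellulin (Btc) was the one that rose in both lines, from at most 0.487 CPM in primary cultures to 2.11 to 3.70 CPM in SIRMu-1 and 4.70, 15.3 and 6.72 CPM in rMC-1. The log2 rise was 2.88 ± 0.42 and 4.55 ± 0.46 (edgeR adjusted p = 0.000262 and 5.17e-06). Nrg1, Tgfa and Hbegf were lower in rMC-1, with log2 fold changes of −3.83, −4.95 and −1.97. Tgfa was −6.08 there without rMC-1 replicate 1, and Nrg1 −2.96 without primary replicate 3.

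The drugs in the medium were compared within SIRMu-1, where 2 libraries had them and 3 did not. None of the 38 tested genes was called by edgeR, and none had an unadjusted p under 0.05. Over all genes edgeR called 0% at the adjusted threshold and 433 (3.82%) at an unadjusted p under 0.05, and DESeq2 called 4. The groups did not overlap for 4 of the 38 genes, against 16% of all genes. The log2 differences, with minus without drugs, were between −0.87 and 1.67 with a median of 0.01. With 2 and 3 libraries, smaller differences could not be seen, and the libraries with drugs were at passages 11 and 20.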

How the data were processed

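The authors deposited 1 table per library of whole-number read counts per gene, not normalized, for 17315 genes. The build was rn6 and the tools named were cutadapt 1.8.1, STAR 2.5.3a and edgeR 3.18.1, per the submitters' processing notes. Neither annotation nor strand setting is given in the sources used here, which leaves genes overlapping in opposite directions uncertain. Per the labels' protocols, libraries were made from polyadenylated RNA with a stranded kit. Reads in no gene (24.2% to 30.3%), with several places (9.47% to 12.3%), unmapped or ambiguous were left out, so genes with near-identical copies are uncertain too. A log2 table of the authors was not used.

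EdgeR 4.0.16 (R 4.3.3) was run on the counts with its expression filter on the 3 groups, TMM factors and a quasi-likelihood model of the group means. All 12 libraries entered it, with 9 residual degrees of freedom (8 for the drugs), and p-values had Benjamini-Hochberg adjustment. The step was tested on simulated counts. The labels do not tie cultures to animals, so p-values measure only the spread of these samples, which may be technical. No 2 libraries of a group agreed within sampling noise. Alternatives were RLE factors, library totals, no filter, a filter at 1 CPM in 3 libraries, DESeq2 1.42.0, a replicate block, fits of 2 groups, libraries of a file-name code summed, SIRMu-1 with drugs only, and each library left out.

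The genes, the lists and the rule for naming genes were chosen with earlier results of these data known. Named were Timp1 to Timp4, Mmp2, Mmp9, Mmp14, Adam10 and Adam17, and genes called with a log2 fold change of at least 1 in size and a mean of at least 5 CPM in 1 group, up to 25 per comparison. Adam4, Adam9, Adam15, Adam30, Adamts3, Adamts9, Adamtsl4, Mmp11, Mmp15, Mmp17, Mmp24, Tspan14, Tspan33, Tspan15 in SIRMu-1 and the untested neighbours of Mmp3 were named after their values were seen. Promoters are from RefSeq on GRCr8, in which all 57 symbols matched a gene and 39 had a promoter sequence. A floor of 3 counts over a group stood in for a count of 0. A gene of the plasminogen activator list that met the naming rule is not reported here.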

Additional observations from a re-analysis of the deposited data

Results flagged for a closer look

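A library far from the rest of its group was looked for in 52 pairs of a named gene and a group of 4 or 5 libraries, on log2(CPM + 0.1), and 4 were found where chance gives about 2.6 (1 in 20). Adamts1 in primary replicate 3 stood at 1658 CPM, above the other primary libraries at 185 to 225 CPM. Mmp2 in primary replicate 4 stood at 1211 CPM, below the others at 3226 to 3668 CPM. Mmp19 in the same library stood at 143 CPM, below the others at 179 to 186 CPM. Mmp23 in SIRMu-1 replicate 5, the culture of the highest passage, stood at 30.7 CPM, below the others at 59.9 to 74.5 CPM. In primary replicate 4 the fibroblast and mesenchymal markers summed to 72140 CPM, the lowest of the 4 primary libraries. Its part in the Mmp2 and Mmp19 values was not tested.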

How the results depend on the processing

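The counts of called genes kept their size under most of the settings tried. DESeq2 and RLE factors changed no call of a named gene. Scaling by library totals, which moved the median of all genes from −0.15 to 0.32 in rMC-1 against primary cultures and from 0.03 to −0.40 between the lines, gave 2 genes that were higher in rMC-1 (1 with TMM) and 6 lower in SIRMu-1 than in rMC-1 (3 with TMM). It turned the difference between the lines for Adam10 (−0.22) and Adam17 (−0.13), and the drug difference for Mmp14 (0.0425). A filter at 1 CPM in 3 libraries removed Adam4 and left 0 genes higher in rMC-1. With libraries of a file-name code summed (4 residual degrees of freedom), 1 gene rose in SIRMu-1 and 0 in rMC-1 against primary cultures, and 1 was lower in SIRMu-1 than in rMC-1. Lower calls in SIRMu-1 against primary cultures then ended for Adam10, Adamts19, Adamtsl4, Mmp2, Mmp14, Mmp15, Mmp28 and Timp2. Of the genes that met the naming rule, calls between the lines then ended for Adamts1 (2.90, edgeR adjusted p = 0.0756) and Mmp9 (3.42, 0.0508). In the related lists they ended for Areg (−2.87, edgeR adjusted p = 0.0651), Frmd8 (−1.22, 0.0717) and Hbegf (1.08, 0.0971). Against the 2 SIRMu-1 cultures with drugs, 12 genes were lower in SIRMu-1. Replicate numbers did not pair the libraries: deviations of same-numbered libraries correlated at −0.043 to 0.122 over 10 pairs, 2 of them above 0.1. With a replicate block, 18 genes were lower and 4 higher in SIRMu-1, and 30 lower and 1 higher in rMC-1, against primary cultures; Mmp16 (1.01, edgeR adjusted p = 0.068) and Adam10 (−0.46, 0.0651) were no longer called in SIRMu-1, and Adam17 was called between the lines (0.40, 0.0224). Over the fits that left out 1 library each, 1 to 5 genes were higher and 15 to 21 lower in SIRMu-1, and 1 to 2 higher and 29 to 32 lower in rMC-1, against primary cultures. Between the lines 17 to 22 were higher and 2 to 5 lower in SIRMu-1. In these fits Timp1 between the lines ran from −0.43 to 0.0482, above 0 without rMC-1 replicate 1. The drug differences, none of them called, ran from −0.69 to 0.17 for Timp1, −0.98 to 0.42 for Timp3, −0.0773 to 0.37 for Mmp2, −0.17 to 0.74 for Mmp9, −0.18 to 0.12 for Mmp14 and −0.38 to 0.0735 for Adam10. The cause of these changes was not tested. Depth limits what can be seen for genes with few counts. Timp4 and Mmp10 are given as counts without a test, since fewer than 3 libraries reached the filter's minimum of 0.349 CPM on library totals.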
